A study of Mus musculus with 4 samples.

Results

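Transcripts that are abundant in neutrophils were followed in bulk liver RNA of mice given an overdose of acetaminophen (APAP). The 10 genes were S100a8, S100a9, Clec4d, Mmp8, Mmp9, Csf3r, Cxcr2, Il1r2, Il1b and Retnlg. They were chosen by name, with earlier results of these data known, and are 10 of the 54149 genes listed. Libraries came from adult female C57BL/6 x 129S4/SvJae mice. The Utx KO group carried a liver-specific knockout of Utx (listed as Kdm6a), a histone H3 lysine 27 demethylase, and the WT group was the age- and sex-matched control. All mice of both groups had been fasted for 16 h before 300 mg/kg APAP by intraperitoneal injection. Each group had 2 libraries, and each library was a pool of RNA from 2 mice. There were no untreated livers, so the effect of APAP itself cannot be measured. The Cre driver and the time between dosing and collection were not given in the sources used here.

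Neutrophils are short-lived phagocytes that are made in the bone marrow under granulocyte colony-stimulating factor and leave the blood along CXC chemokine gradients. In APAP overdose, hepatocytes die around the central vein, and neutrophils enter the injured tissue after that necrosis. Mature neutrophils carry large amounts of calprotectin, the complex of S100A8 and S100A9, and store matrix metalloproteinases in granules. None of the 10 genes is restricted to neutrophils: monocytes and macrophages also express several of them, above all Il1b.

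Between 16330451 and 17804730 reads were recovered per library, and Alb took 5.40% to 6.93% of them. Kdm6a was at 2.20 and 2.12 FPKM in KO pools, against 3.40 and 3.85 FPKM in WT pools. Its log2 fold change was -0.63 (SE 0.13, limma adjusted p = 0.0715), and gene-level FPKM do not resolve the deleted part. Hepatocyte transcripts were present at high levels in every pool, with Alb between 21955 and 29597 FPKM. Ly6g, a defining marker of mouse neutrophils, was almost undetected. It had 1 and 2 reads in KO pools and 0 and 5 reads in WT pools, and the 0 allows up to 3 reads, or 0.188 FPKM.

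Sequence around their start sites is shown for members on which the results turn. Windows of 300 bases, 250 before and 50 after the annotated start, came from RefSeq on GRCm38.p6 and matched 9 of the 10 members; Mmp9 was not matched. S100a8 and S100a9 are shown because they are the most abundant members and neighbours on chromosome 3. Clec4d is shown as a further member past the threshold and Mmp8 as the member whose window held both kinds of match found. Capitals mark matches, on either strand, to the letters GAGGAAGT for PU.1 or TTGCNNAA for C/EBP, and no 2 matches overlapped.
S100a8 (chr3:90668821-90669120, plus strand): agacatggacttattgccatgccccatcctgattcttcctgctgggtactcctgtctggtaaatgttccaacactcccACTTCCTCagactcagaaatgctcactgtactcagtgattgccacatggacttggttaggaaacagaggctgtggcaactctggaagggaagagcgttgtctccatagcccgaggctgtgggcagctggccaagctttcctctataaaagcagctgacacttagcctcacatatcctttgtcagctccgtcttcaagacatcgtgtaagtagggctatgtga
S100a9 (chr3:90695672-90695971, minus strand): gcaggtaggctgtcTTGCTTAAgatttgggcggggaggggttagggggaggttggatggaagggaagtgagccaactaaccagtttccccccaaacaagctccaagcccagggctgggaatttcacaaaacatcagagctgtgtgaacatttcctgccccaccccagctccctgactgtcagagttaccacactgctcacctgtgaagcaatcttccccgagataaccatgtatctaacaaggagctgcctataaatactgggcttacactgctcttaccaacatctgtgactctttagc
Clec4d (chr6:123261857-123262156, plus strand): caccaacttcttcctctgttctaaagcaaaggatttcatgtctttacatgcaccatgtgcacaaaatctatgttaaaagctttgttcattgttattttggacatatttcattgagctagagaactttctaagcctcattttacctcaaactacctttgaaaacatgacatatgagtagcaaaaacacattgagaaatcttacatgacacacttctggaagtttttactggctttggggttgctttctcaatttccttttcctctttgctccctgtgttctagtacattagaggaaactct
Mmp8 (chr9:7558179-7558478, plus strand): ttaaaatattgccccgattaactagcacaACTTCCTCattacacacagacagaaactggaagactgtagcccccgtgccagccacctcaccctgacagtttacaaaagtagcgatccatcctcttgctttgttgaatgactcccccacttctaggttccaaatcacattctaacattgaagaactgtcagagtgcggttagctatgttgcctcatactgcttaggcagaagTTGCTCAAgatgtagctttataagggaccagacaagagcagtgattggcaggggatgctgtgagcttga

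A PU.1 match lay 172 bases before the start of S100a8, and a C/EBP match 236 bases before the start of S100a9. In Mmp8 a PU.1 match lay 221 bases and a C/EBP match 19 bases before the start. Retnlg had a C/EBP match 246 bases before its start, and the other 5 windows held no match. C/EBP letters were found in 3 of 9 member windows, against 10.8% of 32851 windows in the table, and PU.1 letters in 2 of 9, against 3.20%. The letters searched for AP-1 (TGANTCA) and the NF-kB motif were found in 0 of 9, against 7.81% and 1.63% of all windows. These matches describe letters in 300 bases and say nothing about binding.

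All 10 transcripts were lower in the Utx KO pools, and for each of them both KO pools lay below both WT pools. The calprotectin genes S100a8 and S100a9, the lectin receptor gene Clec4d and the gelatinase gene Mmp9 passed the test. The other 6 had log2 fold changes between -2.43 and -0.62 and did not pass. All 10 averaged 1 FPKM or more across the 4 libraries and entered the test. The test was limma on log2(FPKM + 0.5) over 11900 genes with a Benjamini-Hochberg threshold of 0.05. Mmp8, Mmp9, Cxcr2 and Il1r2 averaged 0.574, 0.670, 0.692 and 0.345 FPKM in KO pools. They met the filter of 1 FPKM only through the WT pools, and the counts and median of members given here include them. Of all tested genes 3.14% passed as lower and 1.6% as higher, against 4 and 0 of the 10 members. The members were chosen with earlier results of these data known. Comparisons of members with all tested genes may therefore partly repeat that choice and are a description only. The split over all genes was 374 lower and 190 higher, and 255 lower and 211 higher when FPKM were rescaled to the reads listed. Both KO pools lay below both WT pools in 29.9% of tested genes. The median log2 fold change was -1.45 over the members and 0.01 over all tested genes. In bulk tissue, fewer cells of a type and less RNA per cell cannot be told apart.

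**Figure D1:**
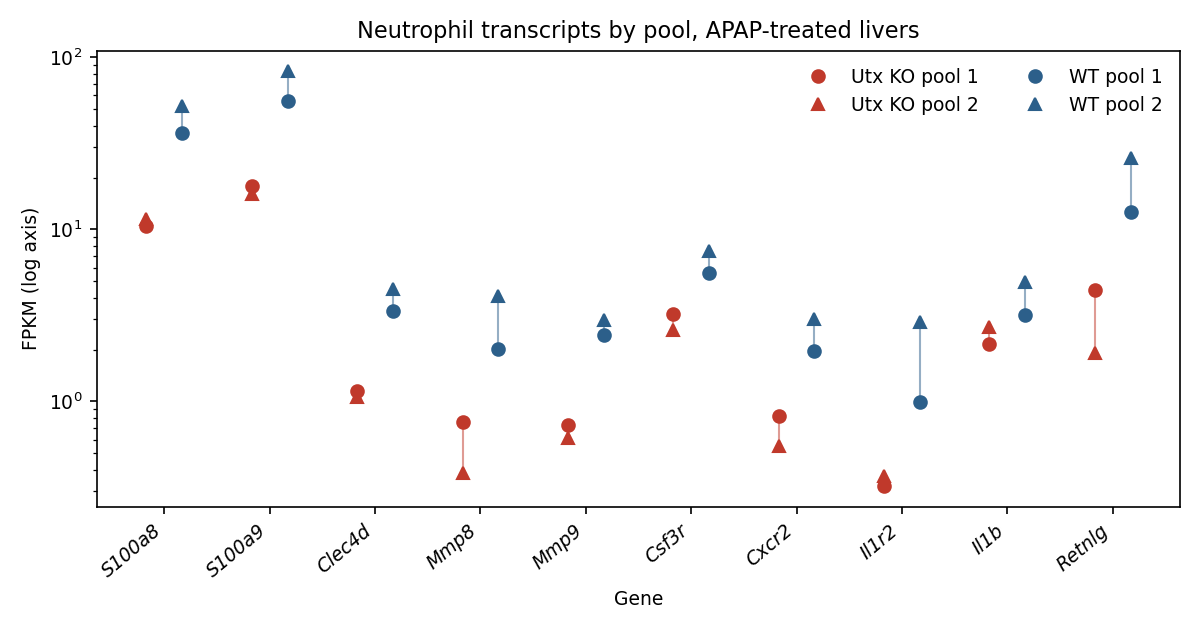
FPKM of the 10 transcripts on a log axis, by gene, with Utx KO pools in red left of WT pools in blue; circles are pool 1, triangles pool 2, and a line joins the pools of a group. Both KO pools lie below both WT pools for every gene, as for Retnlg, where KO pools had 4.43 and 1.92 FPKM and WT pools 12.6 and 25.8 FPKM.

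S100a8 and S100a9 encode calcium-binding proteins that form calprotectin, which chelates metals and acts as a danger signal. S100a8 (ENSMUSG00000056054, GRCm38 chromosome 3, 90668978 to 90670035, plus strand) was at 10.5 and 11.5 FPKM in KO pools, against 36.4 and 52.1 FPKM in WT pools. These values rest on 130 and 137 reads in KO pools and on 427 and 568 reads in WT pools. The KO pools were close together and well below the lower WT pool, and the log2 fold change came to -1.94 (SE 0.20, 95% confidence interval -2.46 to -1.41, limma adjusted p = 0.0302). S100a9 (ENSMUSG00000056071, chromosome 3, 90692632 to 90695721, minus strand) was at 17.8 and 16.1 FPKM in KO pools, against 55.6 and 82.6 FPKM in WT pools. Its log2 fold change came to -1.97 (SE 0.22, 95% confidence interval -2.54 to -1.40, limma adjusted p = 0.0315). The means were 4.02-fold higher in WT for S100a8 and 4.07-fold higher in WT for S100a9. The ratio of S100a9 to S100a8 FPKM was 1.70 and 1.40 in KO pools and 1.53 and 1.59 in WT pools, so the ratio overlapped between groups while both levels did not. Together they made up 67.6% and 73.0% of the summed FPKM of the 10 members in KO pools, and 74.1% and 70.7% in WT pools.

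Mmp8 and Mmp9 encode the collagenase and the gelatinase that neutrophils store in their granules and use on extracellular matrix. Mmp9 (ENSMUSG00000017737, chromosome 2, 164940780 to 164955850, plus strand) was at 0.729 and 0.610 FPKM in KO pools, against 2.42 and 2.97 FPKM in WT pools. It fell with a log2 fold change of -1.45 (SE 0.19, 95% confidence interval -1.96 to -0.94, limma adjusted p = 0.0388), and had the smallest gap between WT pools of all members. Mmp8 (ENSMUSG00000005800, chromosome 9, 7558456 to 7568485, plus strand) was at 0.763 and 0.385 FPKM in KO pools, against 2.02 and 4.12 FPKM in WT pools. WT pools differed by a factor of 2.03, the groups did not overlap, and Mmp8 did not pass (log2 fold change -1.69, SE 0.37, limma adjusted p = 0.0771). Its mean was 5.35-fold higher in WT, against 4.02-fold for Mmp9, and the 33 and 16 reads in KO pools limit its precision. On the log2(FPKM + 0.5) scale the changes of such low genes are understated. Of 11 tested relatives and inhibitors of the matrix metalloproteinases, 0 passed by limma in either direction, and the median log2 fold change was -0.10. Their smallest p-values belonged to Mmp19 and Timp3. Mmp19 was at 16.1 and 18.9 FPKM in KO pools and at 30.5 and 24.2 FPKM in WT pools (limma adjusted p = 0.0997), and the inhibitor Timp3 at 3.74 and 3.26 FPKM in KO pools and at 5.61 and 8.15 FPKM in WT pools (limma adjusted p = 0.0853).

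Of the surface receptors, Clec4d was the one that passed. Clec4d, a C-type lectin of myeloid cells that recognises microbial glycolipids (ENSMUSG00000030144, chromosome 6, 123262111 to 123275265, plus strand), was at 1.16 and 1.06 FPKM in KO pools, against 3.37 and 4.49 FPKM in WT pools. Its log2 fold change came to -1.45 (SE 0.19, 95% confidence interval -1.94 to -0.96, limma adjusted p = 0.0369). Csf3r, the receptor of granulocyte colony-stimulating factor (ENSMUSG00000028859, chromosome 4, 126024550 to 126044440, plus strand), was at 3.23 and 2.62 FPKM in KO pools, against 5.59 and 7.52 FPKM in WT pools. The groups did not overlap, but the difference was smaller, at a log2 fold change of -1.03 (SE 0.19, 95% confidence interval -1.53 to -0.53, limma adjusted p = 0.0569). Cxcr2, the receptor through which CXCL1 and CXCL2 attract neutrophils (ENSMUSG00000026180, chromosome 1, 74153989 to 74161246, plus strand), was at 0.828 and 0.555 FPKM in KO pools, against 1.96 and 3.005 FPKM in WT pools. It had a log2 fold change of -1.31 (SE 0.26, 95% confidence interval -2.01 to -0.61, limma adjusted p = 0.0665). The level of Csf3r relative to Cxcr2 was 3.90 and 4.72 in KO pools and 2.85 and 2.50 in WT pools, a ratio whose groups did not overlap. It was not tested, and Cxcr2 rests on 45 and 29 reads in KO pools. For FPKM of all tested genes, both KO pools were below both WT pools in 29.9% and above them in 31.6%. Of other ratios formed, Mmp8 to Mmp9 overlapped between groups and Il1r2 to Il1b did not.

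The interleukin-1 genes were the cytokine Il1b and its decoy receptor Il1r2, which binds interleukin-1 without signalling. Il1b (ENSMUSG00000027398, chromosome 2, 129364570 to 129371139, minus strand) was at 2.15 and 2.69 FPKM in KO pools, against 3.19 and 4.94 FPKM in WT pools. It had the smallest difference of the 10, with a mean 1.68-fold higher in WT and a log2 fold change of -0.62 (SE 0.24, 95% confidence interval -1.25 to -0.0029, limma adjusted p = 0.183). The higher KO pool and the lower WT pool were nearer each other than the pools within WT. The ratio of Il1b to S100a9 FPKM was 0.120 and 0.167 in KO pools, against 0.0574 and 0.0598 in WT pools. The groups did not overlap in this ratio, which was not tested. Il1r2 (ENSMUSG00000026073, chromosome 1, 40074079 to 40125231, plus strand) was at 0.323 and 0.367 FPKM in KO pools, against 0.992 and 2.90 FPKM in WT pools. The KO values rest on 11 and 12 reads and the WT values on 32 and 87 reads. WT pools differed 2.92-fold, the widest gap of any member, and the test did not pass (log2 fold change -1.41, SE 0.45, limma adjusted p = 0.137). Il1b overlaps the antisense gene Il1bos, and Il1r2 the antisense gene Gm16894, and strand marking is not stated. Both antisense genes were at 0.140 FPKM or less in every pool.

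Of 10 tested genes of the interleukin-1 pathway outside the members, 1 fell, 0 rose and 9 did not pass, and the median log2 fold change was -0.10. The gene that fell was Il1rn, the interleukin-1 receptor antagonist, at 2.20 and 2.66 FPKM in KO pools, against 5.21 and 4.68 FPKM in WT pools (log2 fold change -0.90, SE 0.14, limma adjusted p = 0.0478). Among 9 tested S100 relatives and calprotectin receptors, 0 fell and 1 rose by limma, with a median of -0.41. The gene that rose was Cd36, a fatty acid translocase on the list as a scavenger receptor, at 65.3 and 63.5 FPKM in KO pools, against 23.2 and 22.4 FPKM in WT pools (limma adjusted p = 0.0258). Of 9 tested colony-stimulating factor receptors and related genes, 0 passed by limma, with a median of 0.05. Cxcl12, the chemokine that retains neutrophils in marrow, was at 43.5 and 28.2 FPKM in KO pools and at 16.9 and 22.9 FPKM in WT pools (limma adjusted p = 0.142). Csf2rb, the beta chain shared by several cytokine receptors, was at 1.85 and 2.51 FPKM in KO pools, against 4.0005 and 2.89 FPKM in WT pools (limma adjusted p = 0.194).

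Retnlg, a resistin-like secreted protein expressed by mouse neutrophils and marrow (ENSMUSG00000022651, chromosome 16, 48872608 to 48874498, plus strand), had the widest difference of the 10. It was at 4.43 and 1.92 FPKM in KO pools, against 12.6 and 25.8 FPKM in WT pools. Its mean was 6.06-fold higher in WT, and the log2 fold change of -2.43 ranked 44th from the lowest among 11900 genes. The pools of each group differed by more than a factor of 2, and the SE of 0.48 left an adjusted p of 0.0651 by limma. The family members Retn, Retnla and Retnlb stayed under the filter, with at most 0.396 FPKM in any pool.

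**Figure D2:**
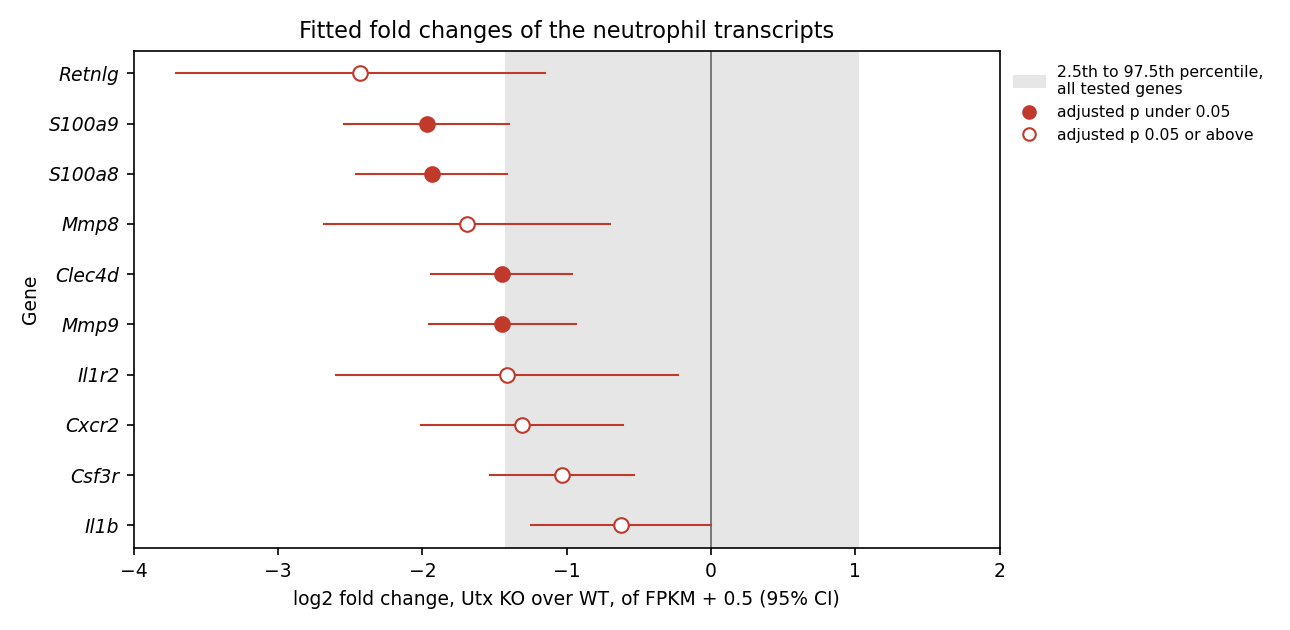
Fitted log2 fold change of Utx KO over WT on the log2(FPKM + 0.5) scale, by gene, with 95% confidence intervals; filled points passed at an adjusted p under 0.05 and open points did not. The grey band spans the 2.5th to 97.5th percentile of all tested genes, from -1.42 to 1.02; Retnlg, S100a9, S100a8, Mmp8, Clec4d and Mmp9 lie below it.

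The pools of WT livers were not alike. WT pool 2 was above WT pool 1 for all 10 members, by 1.22-fold for Mmp9 to 2.92-fold for Il1r2 (median 1.51-fold), whereas WT pool 2 was the higher one in 52.1% of all tested genes. In KO livers, pool 2 was above pool 1 for 3 members and below it for 7. Summed over the 10 members, FPKM came to 42.0 and 37.8 in KO pools, against 124 and 190 in WT pools. The WT pools thus differed by more than the KO pools, yet the lower WT pool was still above either KO pool.

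With 1 pool left out, its group holds a single pool that is assumed to vary like the other group, and fewer genes passed overall. Lower calls over all genes numbered 2 without KO pool 1, 183 without KO pool 2, 20 without WT pool 1 and 0 without WT pool 2, against 374 with all pools. Without KO pool 1, KO pool 2 or WT pool 2, 0 members passed by limma, although the log2 fold change of each of the 10 stayed below 0. Without WT pool 1, S100a8 and S100a9 passed and Clec4d and Mmp9 did not. Over the 4 omissions the log2 fold change of S100a8 ran between -2.19 and -1.68, that of Mmp9 between -1.57 and -1.32 and that of Il1b between -0.90 and -0.35. When protein-coding genes alone were tested, 8 members passed, all but Il1b and Il1r2. With limma voom on recovered reads, 6 members passed, as Csf3r and Cxcr2 joined the 4, and 3.94% of tested genes passed as lower. When the filter was lowered to a mean of 0.1 FPKM, limma called 0 of 19082 genes and the adjusted p of S100a8 was 0.0514. At that filter 3995 genes had an unadjusted p under 0.05.

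**Figure D3:**
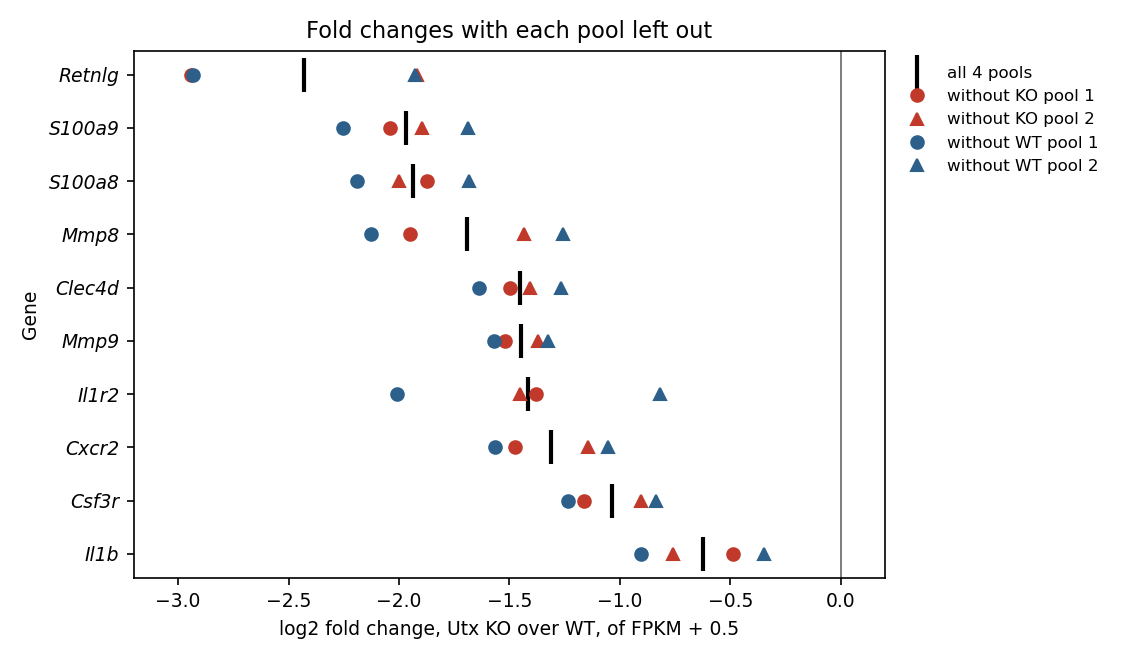
Log2 fold change of Utx KO over WT for each gene with all 4 pools (black bar) and with each pool left out (red for KO pools, blue for WT pools; circle pool 1, triangle pool 2). All points lie below 0, and for every gene the value without WT pool 2 is nearer 0 than the value with all pools.

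Other genes of mature neutrophils were mostly lower without passing. Of 25 listed genes, 11 were tested, 0 passed by limma in either direction, 10 had negative log2 fold changes and the median was -0.43. Of those 11, 8 had both KO pools below both WT pools, against 29.9% of all tested genes. C5ar1, the receptor of complement fragment C5a, was at 1.55 and 2.22 FPKM in KO pools, against 3.87 and 4.03 FPKM in WT pools (log2 fold change -0.91, SE 0.18, limma adjusted p = 0.0663). Pglyrp1, a peptidoglycan recognition protein of granules, was at 0.855 and 0.730 FPKM in KO pools, against 1.67 and 2.15 FPKM in WT pools (limma adjusted p = 0.0837). Both genes had non-overlapping groups and missed the threshold. Cybb, a subunit of the phagocyte oxidase that macrophages share, was at 3.27 and 4.42 FPKM in KO pools and at 3.07 and 3.72 FPKM in WT pools, with overlapping groups.

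Of 10 granule genes of immature neutrophils, 3 were tested and 1 fell. That gene was Lcn2, a siderophore-binding protein that hepatocytes also make in large amounts during the acute phase, at 154 and 165 FPKM in KO pools, against 312 and 358 FPKM in WT pools (log2 fold change -1.06, SE 0.14, limma adjusted p = 0.0375). Without Lcn2 the list summed to 11.1 and 14.9 FPKM in KO pools and to 10.1 and 11.9 FPKM in WT pools, with overlapping groups. Most of that sum was 1 gene, Chil3, at 7.80 and 8.47 FPKM in KO pools and at 7.68 and 7.95 FPKM in WT pools. The sum thus says little about the other granule genes.

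Among genes that attract neutrophils, the chemokine Cxcl2 was called. Of 10 listed attractants and growth factors, 5 were tested, and 1 fell and 0 rose by limma. The gene that fell was Cxcl2, a ligand of CXCR2, at 0.543 and 0.903 FPKM in KO pools, against 21.6 and 31.8 FPKM in WT pools (log2 fold change -4.46, SE 0.25, limma adjusted p = 0.0258). Cxcl1, the other main ligand, was named after its values were seen. It was at 14.0 and 4.64 FPKM in KO pools, against 29.7 and 46.6 FPKM in WT pools, and did not pass (limma adjusted p = 0.0980). Csf2 had 0 reads in all 4 pools. Of 7 adhesion genes for leukocyte arrest, 5 were tested and 0 passed by limma, with Selplg, the ligand of P-selectin, at 0.775 and 1.01 FPKM in KO pools and 1.86 and 1.91 FPKM in WT pools (limma adjusted p = 0.0937). Icam2, an endothelial ligand of leukocyte integrins, was at 1.24 and 1.90 FPKM in KO pools, against 2.55 and 3.11 FPKM in WT pools (limma adjusted p = 0.137). The adhesion list did not share 1 direction, as 3 tested genes had negative log2 fold changes and 2, Icam1 and Vcam1, positive ones. Icam1 was higher in both KO pools, at 7.99 and 6.81 FPKM, against 6.25 and 6.71 FPKM in WT pools (limma adjusted p = 0.421). Vcam1 overlapped between groups.

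Markers of other cell types were summed in the same pools. The general leukocyte list summed to 115 and 164 FPKM in KO pools and to 153 and 147 FPKM in WT pools, with overlapping groups, and 0 of its 10 tested genes passed by limma. Without its most abundant gene, the lysozyme gene Lyz2, it summed to 61.6 and 81.9 FPKM in KO pools, against 91.8 and 92.0 FPKM in WT pools, and the groups did not overlap. Of the 10 genes, 6 had both KO pools below both WT pools, against 29.9% of all tested genes. Log2 fold changes were negative for 7 and positive for 3, with a median of -0.41. The list thus did not share 1 direction, and Ptprc and Lyz2 were among the positive genes. Coro1a, an actin-binding protein of leukocytes, was at 5.75 and 8.05 FPKM in KO pools, against 9.71 and 12.2 FPKM in WT pools (limma adjusted p = 0.141). Cd53, a leukocyte tetraspanin, was at 4.83 and 6.56 FPKM in KO pools, against 7.67 and 8.54 FPKM in WT pools (limma adjusted p = 0.166). The part of leukocyte RNA in general in the members' difference was not tested. Ptprc, the CD45 gene, had overlapping groups and was at 0.895 and 1.45 FPKM in KO pools and at 1.08 and 1.17 FPKM in WT pools. Relative to the leukocyte sum with Lyz2, the summed FPKM of the members was 0.365 and 0.230 in KO pools, against 0.814 and 1.30 in WT pools. Kupffer cell and macrophage markers summed to 260 and 417 FPKM in KO pools and to 434 and 343 FPKM in WT pools. These sums overlapped, and WT pool 1, the lower WT pool for all members, was the higher WT pool here. Of the 12 tested macrophage markers 1 fell, the haemoglobin scavenger receptor Cd163, at 7.06 and 7.67 FPKM in KO pools, against 14.2 and 12.3 FPKM in WT pools (limma adjusted p = 0.0467).

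Monocyte markers summed to 9.34 and 10.1 FPKM in KO pools, against 12.2 and 11.2 FPKM in WT pools. Of the 2 that were tested, Ifitm6 fell, at 1.43 and 1.48 FPKM in KO pools, against 3.46 and 3.02 FPKM in WT pools (limma adjusted p = 0.0475). The other, Plac8, did not pass (limma adjusted p = 0.253). Among the 7 under the filter, Ly6c2 was at 0.655 and 0.660 FPKM in KO pools and at 0.626 and 0.580 FPKM in WT pools. F13a1 was lower in both KO pools, and Ccr2, Ms4a4c, Cx3cr1, Ace and Treml4 overlapped between groups. The monocyte list thus did not share 1 direction. Platelet markers summed to 2.50 and 2.54 FPKM in KO pools, against 6.05 and 4.86 FPKM in WT pools. Of their 2 tested genes, the platelet chemokine Pf4 fell, at 0.778 and 0.890 FPKM in KO pools, against 4.18 and 2.65 FPKM in WT pools (limma adjusted p = 0.0485). That call was lost in 11 of 15 alternatives, with an adjusted p of 0.0741 by limma voom and 0.0625 by limma after rescaling to listed reads. The platelet sum was thus lower in both KO pools, like that of the members, but was higher in WT pool 1 than in WT pool 2, unlike theirs. Most of its difference lay in Pf4, since without that gene the list summed to 1.72 and 1.65 FPKM in KO pools and to 1.87 and 2.21 FPKM in WT pools. Sinusoidal endothelial markers summed to 58.8 and 60.5 FPKM in KO pools, against 80.4 and 77.5 FPKM in WT pools, and 0 of 8 passed by limma. Without Lyve1, the most abundant, they summed to 46.6 and 53.8 FPKM in KO pools and to 62.0 and 53.1 FPKM in WT pools. Those groups overlapped. Of the 8 log2 fold changes, 5 were negative and 3 positive. The scavenger receptor gene Stab1 was at 7.94 and 9.23 FPKM in KO pools, against 13.1 and 11.9 FPKM in WT pools (limma adjusted p = 0.0922). The hyaluronan receptor gene Lyve1 was at 12.2 and 6.71 FPKM in KO pools, against 18.4 and 24.3 FPKM in WT pools (limma adjusted p = 0.104). Erythroid genes summed to 172 and 246 FPKM in KO pools, against 254 and 279 FPKM in WT pools, and 0 of 5 tested genes passed by limma. The globin gene Hba-a1 was at 49.3 and 68.7 FPKM in KO pools, against 75.46 and 75.5 FPKM in WT pools (limma adjusted p = 0.274). Hbb-bs was at 90.6 and 127 FPKM in KO pools, against 129 and 152 FPKM in WT pools (limma adjusted p = 0.305), and near-identical globin copies make both uncertain. The part of blood and endothelial RNA in the members' difference was not tested.

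Lymphocyte markers summed to 5.48 and 6.57 FPKM in KO pools and to 4.96 and 5.80 FPKM in WT pools, and dendritic cell markers to 2.43 and 2.45 FPKM in KO pools and to 2.35 and 2.77 FPKM in WT pools. All 13 lymphocyte and all 8 dendritic cell markers were under the filter. Eosinophil, basophil and mast cell markers summed to at most 1.16 FPKM in any pool, and the mast cell protease gene Cpa3 had 0 reads in all 4. The summed hepatocyte markers overlapped between groups, and 0 of 12 passed by limma. Both KO pools were below both WT pools for 3 of the 12 and above them for 2. Pck1, the rate-limiting enzyme of gluconeogenesis, was at 289 and 358 FPKM in KO pools, against 217 and 240 FPKM in WT pools (limma adjusted p = 0.150). Apoa1, the main apolipoprotein of HDL, was at 7221 and 5748 FPKM in KO pools, against 7874 and 9962 FPKM in WT pools (limma adjusted p = 0.354). Reads of the mitochondrial ribosomal RNAs made up 0.108% and 0.158% of KO libraries, against 0.244% and 0.251% of WT libraries, and the part of this difference in the members' values was not tested.

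**Figure D4:**
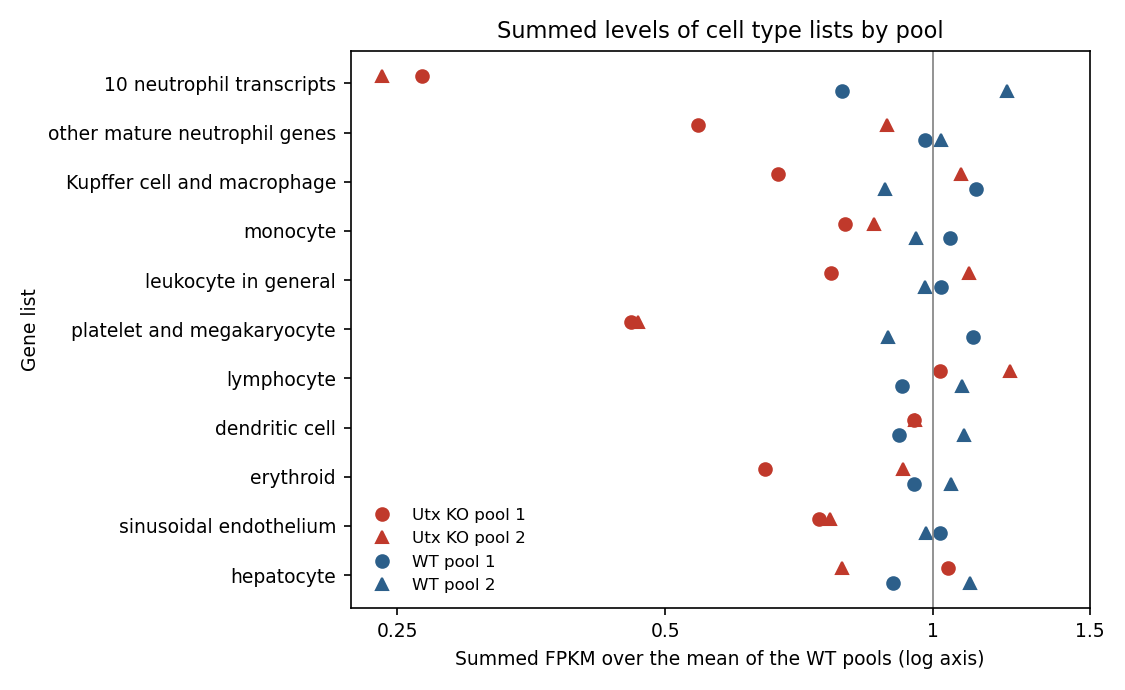
Summed FPKM of the 10 neutrophil transcripts and of the cell type lists shown, divided by the mean of the WT pools of that list (log axis). Utx KO pools are in red above WT pools in blue, circles pool 1, triangles pool 2. The list of eosinophil, basophil and mast cell markers and that of granule genes of immature neutrophils are not shown. Among the lists shown, the 10 transcripts lie farthest to the left in KO pools. Their sums were 42.0 and 37.8 FPKM in KO pools against 124 and 190 FPKM in WT pools. The macrophage list overlaps between groups, and so does the general leukocyte list, which without Lyz2 summed to 61.6 and 81.9 FPKM in KO pools against 91.8 and 92.0 FPKM in WT pools.

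The genes whose profile over the 4 libraries was most like the members' mean profile were Pnrc1, Gdf9, Hist1h4c, Nrip1 and Ccl9. Likeness was the Euclidean distance between centred log2(FPKM + 0.5) profiles among tested protein-coding genes outside the members, and it rests on 4 values per gene. Distances of these 5 ran between 0.104 and 0.280, whereas those of the members themselves ran between 0.212 for Clec4d and 1.10 for Retnlg. Pnrc1, a nuclear receptor coactivator, was at 27.8 and 25.1 FPKM in KO pools, against 58.0 and 97.4 FPKM in WT pools, and did not pass (limma adjusted p = 0.0558). The other 4 passed as lower. Hist1h4c has near-identical histone copies, so its reads are uncertain. Ccl9, a chemokine of myeloid cells in the mouse, was at 3.41 and 3.62 FPKM in KO pools, against 10.5 and 14.1 FPKM in WT pools.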

How the data were processed

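Poly(A)-selected RNA of 2 Utx KO and 2 WT liver libraries was sequenced. The authors deposited FPKM, which scale fragments by gene length and library size, with the gene lengths, per the file headers. The submitters' processing notes name HISAT2 2.0.5 and the build mm10 (GRCm38.p6). How reads were counted, and with which annotation, was not given in the sources used here. FPKM times gene length came out as whole multiples of 1 step per library for 100% of values above 0 (within 0.01 read), which gave the reads quoted. These total 16330451 to 17804730 per library, and the authors' FPKM imply totals of 0.943 to 1.05 times these. Genes were matched by symbol; Siglecf was not matched, and of 2 rows named Itgam the more abundant was used.

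Differences in log2(FPKM + 0.5) were tested two-sided by limma 3.58.1 (R 4.3.3; eBayes with a mean-variance trend, 2 residual and 2.59 prior degrees of freedom) over the 11900 genes averaging 1 FPKM or more, with Benjamini-Hochberg adjustment. P-values set each difference against a spread between pools that is in part borrowed from other genes, through the prior. A gene could meet the filter of 1 FPKM through 1 group alone. An exact permutation test of 2 against 2 cannot go below 0.333. On simulated data the fit found most genes changed by the larger of the folds tried, but more of its calls were false than the adjusted threshold allows, so calls near it are uncertain. The members and gene lists were chosen with earlier results of these data known. Genes were named as members, as Kdm6a, as the called genes of each list or else its 2 genes with the smallest p, or as the 5 nearest in profile. Alb, Cxcl1, Cybb, Ptprc, Ly6g, Csf2, Cpa3, Icam1, Vcam1 and the resistin relatives fall outside this rule. So do the granule genes of immature neutrophils other than Lcn2, the monocyte markers other than Ifitm6 and the mature neutrophil genes under the filter. They were named after their values were seen. Alternatives were the pseudocount, the filter, the scaling, limma variants, voom, protein-coding genes alone, a replicate block and leaving out each library. Figures were drawn with matplotlib 3.10.9.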

Additional observations from a re-analysis of the deposited data

How the results depend on the processing

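All 10 members kept a negative log2 fold change in each of the 15 alternatives run. Of the 150 values this gives, 120 stayed on their side of the threshold, 24 lost a call and 6 gained one. The members that passed numbered 4, with 8 for protein-coding genes alone, 2 with the replicate block, 0 with no filter and 0 with a filter at 0.1 FPKM. Leaving out a library gave 0 to 2. Over all genes, 374 passed as lower and 190 as higher. These counts were 606 and 408 for protein-coding genes alone, 200 and 80 without the mean-variance trend, 236 and 74 with the replicate block, and 0 and 0 with no filter or a filter at 0.1 FPKM, where limma gave 4388 and 3995 genes at an unadjusted p under 0.05. With limma voom 469 were lower and 440 higher, and rescaling to listed reads gave 255 and 211. Leaving out a library gave 0 to 183 lower and 0 to 51 higher genes. Calls among other named genes were lost in 11 of the 15 alternatives for Pf4, 10 for Ifitm6, 9 for Il1rn, 9 for Cd163, 7 for Lcn2, 5 for Cd36 and 4 for Cxcl2, and none changed sign. The causes of these shifts were not tested. The labels do not say that a replicate number pairs pools, and deviations of same-numbered pools correlated at -0.140 over genes. Depth limits Il1r2 and Mmp8 most, with 11 to 33 reads in KO pools. Other members were also shallow in KO pools, with 33 and 29 reads for Clec4d, which passed, 48 and 20 for Retnlg and 45 and 29 for Cxcr2.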

Other observations

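Some neutrophil genes under the filter of 1 FPKM were named after their values were seen, and they have no test. Cd177, a surface glycoprotein of neutrophils, had 9 and 9 reads in KO pools, against 29 and 38 reads in WT pools. Padi4, which citrullinates histones in neutrophils, had 5 and 5 reads in KO pools, against 19 and 24 reads in WT pools. Cxcr1, a chemokine receptor related to Cxcr2, had 0 and 1 reads in KO pools, against 4 and 10 reads in WT pools. For these 3 genes the groups did not overlap and KO pools were lower, as in 29.9% of all tested genes. They come from 14 listed mature neutrophil genes under the filter, of which Ly6g, Trem3 and Itgam overlapped between groups. In the rest both KO pools were lower, in part on very few reads. Trem1, for example, had 0 reads in both KO pools and 1 read in each WT pool.

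Granule genes of immature neutrophils did not share 1 direction. Ngp, a granule protein gene that was tested, had 12 and 22 reads in KO pools, against 24 and 41 reads in WT pools, and did not pass (limma adjusted p = 0.261). Elane, the neutrophil elastase gene, was at 0.342 and 0.178 FPKM in KO pools, against 0.421 and 0.388 FPKM in WT pools, or at most 7 reads a pool. Higher values in KO pools were found for Camp, with 7 and 13 reads in KO pools and 2 and 0 reads in WT pools, and for Cebpe, a transcription factor of granulocyte precursors, at 0.995 and 1.88 FPKM in KO pools, against 0.286 and 0.461 FPKM in WT pools. Prtn3, the proteinase 3 gene of primary granules, was at 0.713 and 1.62 FPKM in KO pools and at 0.239 and 0.771 FPKM in WT pools, with overlapping groups. Mpo, Ctsg, Ltf and Chil3 of the same list also overlapped between groups. The granule genes in this paragraph were named after their values were seen. Elane, Camp, Cebpe and Prtn3 did not enter the test, so no difference from the members was tested.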
